A study of Mus musculus with 2 samples.

Results

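The Ly6 family genes described here are Ly6c2, Ly6c1, Ly6a, Ly6e, Ly6i and Ly6d, 6 of the 20 genes whose symbol starts with Ly6 and of the 31240 genes counted in single cells of B16-F10 melanoma. They were chosen by measured values of these same libraries, as the Ly6 genes with the most UMIs (unique molecular identifiers, each standing for 1 captured mRNA molecule), so their levels and ratios are descriptions and carry no test. B16-F10 is an established melanoma line of C57BL/6 mice. In this study 200000 cells were injected under the skin of female mice of the C57BL/6J background (C57BL/6 in the labels) aged 6 to 10 weeks, which were either Irg1+/+ or Irg1-/- in the host and received no drug, and the tumors were taken 10 days later. This age is the paper's general range for its mice, and its methods give a narrower range within it for subcutaneous tumors. Irg1, also named Acod1, codes for the enzyme that makes itaconate in activated myeloid cells. For each genotype, pieces of 100 mm3 from the tumors of 3 mice were pooled before dissociation, so that each genotype is 1 library and single mice cannot be told apart. From each pool 6000 cells bearing Cd45, the surface marker of blood-derived cells, were sorted and captured on the BD Rhapsody microwell system.

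Ly6 genes code for small, disulfide-rich surface proteins that are tethered to the outer membrane by a glycosylphosphatidylinositol (GPI) lipid anchor. Ly6C, made from Ly6c1 and Ly6c2, is the antigen that separates classical mouse monocytes leaving the bone marrow from the patrolling nonclassical ones, and it is also carried by plasmacytoid dendritic cells and memory CD8 T cells. Sca-1, the product of Ly6a, marks blood stem cells and activated lymphocytes, and both it and several neighbouring genes are known to be induced by interferon.

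The Irg1+/+ library held 6408 cells and 43617546 UMIs, and the Irg1-/- library held 5896 cells and 36432067 UMIs. After cells with 10% or more mitochondrial UMIs were removed, 6284 and 5794 cells remained, with medians of 4528 and 4594.5 UMIs per cell, and 36 cell barcodes occurred in both libraries. Acod1, the targeted gene, was read first. Over the kept cells of the Irg1+/+ library it had 87.8 UMIs per 1000000 UMIs (CPM), and over those of the Irg1-/- library 108 CPM, a log2 ratio of 0.30. It was lower in Vcan+ monocyte-like cells, described below, at 197 and 139 CPM (log2 ratio -0.51), and higher in C1q+ macrophage-like cells, at 93.1 and 142 CPM. The share of Vcan+ monocyte-like cells was 10.6% and 14.7% of kept cells and that of neutrophils 0.652% and 2.52%, so the sum over all cells also moves with the makeup of the libraries. Since the targeted gene was lower in some classes only and still counted where the label says it is lost, the second library is called the library labelled Irg1-/- throughout. A count per gene does not show which exons were read, so the label could not be checked in this way.

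All 6 genes lie in 1 cluster on chromosome 15. In GENCODE M21 (GRCm38) they run in the order Ly6d (from 74762056), Ly6e, Ly6i, Ly6a, Ly6c1 and Ly6c2 (ending at 75111970), over 350 kb that holds 23 annotated genes, 17 of which are listed in the files. In that span the 6 genes took 99.9% of the UMIs in both libraries. Ly6c2 (chr15:75108158-75111970) and Ly6c1 (chr15:75044018-75048830) are both on the minus strand and share 384 of 393 coding bases, or 97.7%. Their first 180 coding bases, printed in the sense direction from the start codon at positions 75111667 and 75048511, are shown because they let a reader see how alike the paralogs are, with the 6 bases that differ within them in capitals.
Ly6c2: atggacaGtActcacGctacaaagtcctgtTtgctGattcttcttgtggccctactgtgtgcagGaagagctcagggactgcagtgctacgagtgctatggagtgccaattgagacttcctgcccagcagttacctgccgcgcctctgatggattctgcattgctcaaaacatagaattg
Ly6c1: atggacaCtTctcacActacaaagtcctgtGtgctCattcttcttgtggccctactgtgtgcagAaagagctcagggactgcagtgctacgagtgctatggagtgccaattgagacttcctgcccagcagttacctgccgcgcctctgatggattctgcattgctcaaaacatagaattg
Of all stretches of 75 bases in the Ly6c2 transcript, 21.9% also occur exactly in Ly6c1, and of those in its last 400 bases, near the 3′ end that carries the UMI, 15.3% do. For Ly6c1 the share found in transcripts of Ly6c2 or Ly6a was 23.2%. Counts of these paralogs are therefore uncertain where reads fell on shared stretches. Ly6a and Ly6i share 86.3% of coding bases but only 0.805% and 0.555% of such stretches, and Ly6e and Ly6d shared none. Ly6c2 and Ly6e had the least similar coding sequences among the pairs with Ly6c2, at 60.2% identity.

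The promoters of this near-identical pair differ more than their coding sequences. In the RefSeq promoter table (GRCm38.p6), which matched 2 of the 6 genes, 164 of 216 aligned bases were the same, or 75.9%. The 250 bases before the first listed start are printed for both, 5′ to 3′ on the minus strand, to show how far the upstream sequences of the pair have diverged. Capitals mark the only matches in these windows to the 4 motifs searched on both strands.
Ly6c2, chr15:75111972-75112221: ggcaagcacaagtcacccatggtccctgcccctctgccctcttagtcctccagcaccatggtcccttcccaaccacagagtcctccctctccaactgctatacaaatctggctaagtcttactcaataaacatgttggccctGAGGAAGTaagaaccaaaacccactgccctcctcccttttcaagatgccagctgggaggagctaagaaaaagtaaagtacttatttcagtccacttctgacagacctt
Ly6c1, chr15:75048838-75049087: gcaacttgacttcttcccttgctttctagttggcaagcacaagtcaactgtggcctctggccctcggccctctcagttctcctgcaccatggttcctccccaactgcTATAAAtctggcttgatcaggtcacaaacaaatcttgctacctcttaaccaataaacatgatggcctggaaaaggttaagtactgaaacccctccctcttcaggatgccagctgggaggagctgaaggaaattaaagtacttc
The motifs were the core site of the myeloid factor PU.1 (GAGGAAGT), the interferon-stimulated response element (GAAA, any 2 bases, GAAA), the gamma-activated site (TTCNNNGAA) and the TATA box (TATAAA). The PU.1 core was found once for Ly6c2, starting 108 bases before the start, and occurred in 2.44% of 32851 promoters of the same length. A TATA box was found once for Ly6c1, 143 bases before the start, and occurred in 12.4%. The response element, present in 2.98% of promoters, and the gamma-activated site, present in 7.02%, had no match in either window, which says only that these letters are not there. The table lists a second start for each gene, which, unlike the first, lies within the GENCODE transcript, and in the 250 bases before it the PU.1 core was found 2 times for Ly6c2 and 1 time for Ly6c1 and the TATA box in neither, so the matches depend on the start chosen. These second windows reach into the annotated genes, from 75111938 for Ly6c2 (gene end 75111970) and from 75048664 for Ly6c1 (gene end 75048830). The printed windows lie just outside the genes.

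Cells were placed in classes by the summed UMIs of marker genes, none of them a Ly6 gene, per 10000 UMIs of the cell, and each class is named after its markers. Vcan+ monocyte-like cells (gated on Vcan, Ccr2, Chil3 and Plac8 among others) numbered 665 and 852, C1q+ macrophage-like cells (gated on C1qa, C1qb, C1qc and Adgre1 among others) 913 and 818, and cells with intermediate macrophage markers 193 and 253. Mature dendritic cells, T, NK and B cells, plasmacytoid dendritic cells (pDC) and the smaller classes were gated in the same way, 94 and 88 cells with markers of more than 1 lineage were left out as mixed, and 1475 and 1239 passed no gate. Markers of monocytes and of Cd209a+ dendritic cells did not count towards mixed, so cells that carried them beside those of another lineage stayed in that lineage. Every level below is a sum over the cells of a class in 1 library with an exact Poisson 95% interval, and every ratio is the library labelled Irg1-/- over Irg1+/+ with an exact binomial interval. These intervals cover counting error only, not the difference between mice, and with 1 library per genotype no difference between genotypes can be tested. As UMIs are counted at 3′ ends and not per length, levels are compared between classes and libraries and not between genes, and the gene said to lead a marker list is that with the most UMIs.

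Ly6c2, which codes for the Ly6C antigen of monocytes, was highest in pDC, followed by the Vcan+ monocyte-like and intermediate cells, and among classes of at least 25 cells it was lowest in mature dendritic cells in both libraries. In pDC (60 and 49 cells) it stood at 3914 CPM (3710 to 4127) in Irg1+/+ and 5048 CPM (4786 to 5321) under the label Irg1-/-. In Vcan+ monocyte-like cells it stood at 2219 CPM (2170 to 2270) and 3955 CPM (3897 to 4014), from 7587 and 17860 UMIs. The intervals of the 2 libraries did not overlap in either class, and the log2 ratio was 0.37 in pDC and 0.83 (0.79 to 0.87) in Vcan+ monocyte-like cells.

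Below these came the nonclassical monocyte-like cells (99 and 79 cells, markers Ace and Treml4), with 999 and 1710 CPM. In both libraries their interval overlapped that of CD8 T cells, which had 989 CPM (959 to 1019) in Irg1+/+ and 1564 CPM (1519 to 1610) in the other library. Their median depths were 4943 and 7318 UMIs, and the log2 ratio of 0.66 was 0.41 when each cell counted equally and 0.39 at 2000 UMIs per cell. Within CD8 T cells, those without cycling markers had 1276 and 1794 CPM and cycling ones 696 and 1411 CPM, so the cycling cells were lower in both libraries. Regulatory T cells were the lowest of the T cell classes, at 296 and 771 CPM, and conventional CD4 T cells stood at 777 and 990 CPM. NK cells had 504 and 770 CPM, and B cells 459 CPM (355 to 585) and 556 CPM (448 to 682), the 1 class of 24 whose ratio interval included 0.

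The order of the classes was alike at the top and changed in the middle. In the Irg1+/+ library the interferon-high and interferon-low Vcan+ monocyte-like cells and the intermediates could not be ordered beyond their intervals (2261, 2180 and 2225 CPM). In the library labelled Irg1-/- the intermediates, at 4214 CPM, stood above both monocyte states, at 3967 and 3946 CPM, which overlapped each other. Lyve1+ macrophage-like cells moved furthest, from 15th of the 23 classes with at least 25 cells to 6th of 22. Their median depths were 3939 and 8248 UMIs, and no ranks were made at equal depth. The lowest were mature dendritic cells, at 231 CPM (211 to 251) and 452 CPM (423 to 483), whose interval overlapped those of Mrc1+ and cycling macrophage-like and melanoma cells in the first library.

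**Figure D1:**
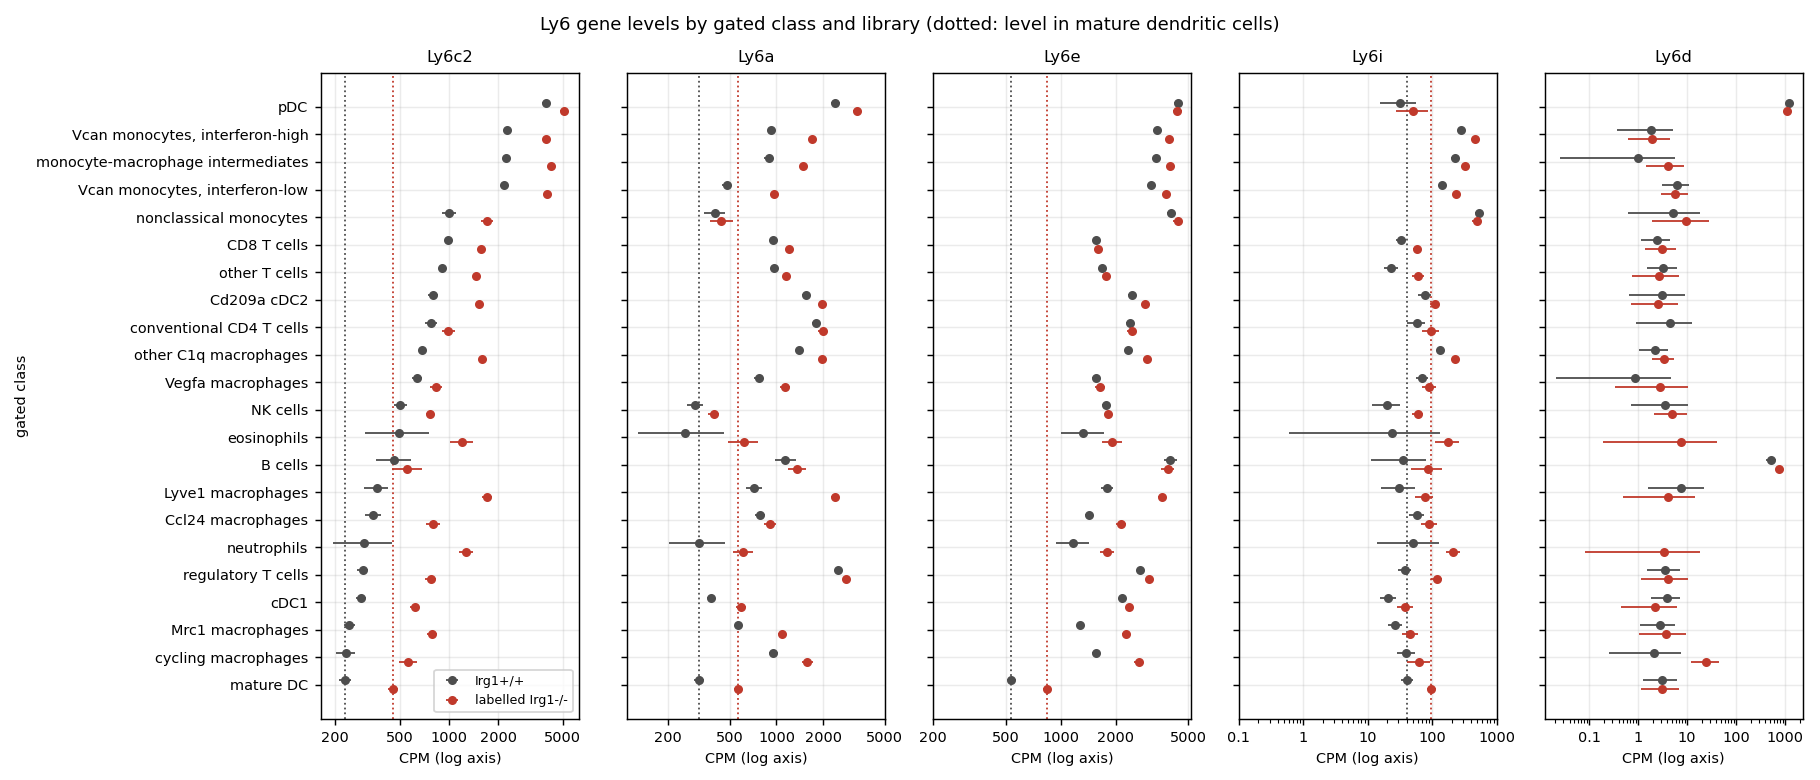
Levels of 5 Ly6 genes in CPM (log axis) by gated class (vertical axis), in the Irg1+/+ library (grey) and the library labelled Irg1-/- (red). Points are sums over the cells of a class, bars are exact Poisson 95% intervals, and dotted lines mark the level in mature dendritic cells. Ly6c2 falls from pDC (3914 and 5048 CPM) through the monocyte classes to mature dendritic cells (231 and 452 CPM), while Ly6d stands apart in pDC and B cells only.

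Free RNA can give UMIs to cells that do not make an mRNA, and no empty wells were analysed here. Dendritic cells that have matured are not known for Ly6C, yet 58.5% and 80.9% of them had at least 1 Ly6c2 UMI, at median depths of 5274.5 and 5675 UMIs. Thinned to 2000 UMIs per cell, with 69 and 34 shallower cells left out, the shares were 28.5% (23.5 to 33.9) and 52.8% (46.6 to 59.0). In Vcan+ monocyte-like cells the thinned shares were 83.7% and 93.6% (unthinned 88.7% and 95.1%, median depths 4951 and 5096, 82 and 104 shallower cells), well above those of the dendritic cells. In C1q+ macrophage-like cells they were 50.4% and 77.0% (unthinned 75.9% and 90.5%, median depths 8164 and 8189, 221 and 135 shallower cells). The level in mature dendritic cells itself differed between the libraries by a log2 ratio of 0.97.

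Markers of monocytes mostly moved in the same direction. Of the 10 monocyte genes read beside Ly6c2, described below, 9 were counted in mature dendritic cells. Of these, 6 were at least 1.5-fold higher in the library labelled Irg1-/- (6.22% of all genes) and 1 was lower (8.88%). The 8 genes of the Vcan+ monocyte list summed to 450 CPM in mature dendritic cells of the Irg1+/+ library. In those of the library labelled Irg1-/- they summed to 859 CPM. Plac8 led the list in both, and none of its genes was at 0. The 6 macrophage genes, led by C1qb, summed to 704 and 674 CPM in the same cells. Over all kept cells the monocyte list summed to 2615 and 3794 CPM, and Vcan+ monocyte-like cells took 8.12% and 12.8% of all UMIs. The part of free RNA in the library ratios was not tested. When the level in mature dendritic cells was subtracted from both libraries, Vcan+ monocyte-like cells kept a log2 ratio of 0.82 and C1q+ macrophage-like cells had 1.81, whereas NK cells had 0.22, conventional CD4 T cells -0.02, Vegfa+ macrophage-like cells -0.09 and B cells -1.14. In some classes near the subtracted level the ratio became larger, at 2.28 in regulatory T cells (1.38 before), 3.28 in Lyve1+ cells (2.25 before), 3.51 in neutrophils (2.04 before), 4.56 in Mrc1+ cells (1.69 before) and 6.46 in cycling macrophage-like cells (1.28 before). Mrc1+ cells had 14.2 CPM left in the Irg1+/+ library and the cycling ones 1.25 CPM, so these ratios rest on small remainders. The subtraction was chosen after the data were seen and takes the level in mature dendritic cells to be the same background in every class, which was not tested.

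C1q+ macrophage-like cells showed a larger Ly6c2 ratio than monocytes. They had 479 CPM (465 to 493) in Irg1+/+ and 1323 CPM (1297 to 1349) under the label Irg1-/-, a log2 ratio of 1.47 (1.42 to 1.52). The states differed widely. Lyve1+ cells (41 and 57 cells), named for a receptor of resident tissue macrophages, had 360 and 1710 CPM, a log2 ratio of 2.25 (1.99 to 2.52), and Mrc1+ cells, with the mannose receptor, had 245 and 787 CPM, a log2 ratio of 1.69. The Lyve1+ cells differed in depth, with medians of 3939 and 8248 UMIs. Thinned to 2000 UMIs per cell, with 17 and 15 shallower cells left out, their ratio was 1.40 (0.87 to 2.00), no longer above that of the Mrc1+ cells (1.66, 1.27 to 2.07), and with each cell counted equally it was 1.97. For all C1q+ cells these values were 1.27 and 1.32. These alternatives were chosen after the data were seen. Vegfa+ cells, gated on hypoxia-linked genes with a lower limit on the macrophage markers, so that only 77 of 166 and 62 of 116 also passed the C1q+ gate, had 635 and 832 CPM, a ratio of 0.39. In the same Lyve1+ cells the Vcan+ monocyte list summed to 916 and 2291 CPM, led by Ccr2, and in all C1q+ cells to 1527 and 2649 CPM, so monocyte markers moved with Ly6c2 there too and their part was not tested. The macrophage markers of the C1q+ cells summed to 8776 and 9044 CPM.

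Neutrophils had few UMIs. Ly6c2 gave 24 UMIs in 41 cells (302 CPM) of the Irg1+/+ library and 380 UMIs in 146 cells (1268 CPM) of the library labelled Irg1-/-. In dendritic cells Ly6c2 was also higher in the second library, at 794 and 1523 CPM in Cd209a+ type 2 conventional dendritic cells and 288 and 615 CPM in the cross-presenting type 1 cells. Monocyte genes were higher in some of these classes as well, in 4 of 8 counted in neutrophils (15.8% of all genes) and in 5 of 10 in the type 1 cells (6.72%), where 2 were lower (7.21%). In the Cd209a+ cells 0 of 9 were higher (7.35%) and 1 was lower (9.32%). In NK cells 4 of 9 were higher (6.71%). The part of monocyte RNA in these ratios was not tested. Most Ly6c2 mRNA did not come from a single class. Vcan+ monocyte-like cells gave 23.1% and 30.4% of all Ly6c2 UMIs, T cells 23.8% and 13.5%, and C1q+ macrophage-like cells 14.5% and 17.2%. Of 42105693 and 35307041 UMIs of all genes, these classes held 3418710 and 4515657, 9835298 and 5798032, and 9919847 and 7636788. The Ly6c2 share of Vcan+ cells thus lay above their share of all UMIs and that of C1q+ cells below it. That of T cells was near it in Irg1+/+ and below it in the other library.

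Along the macrophage markers Ly6c2 was lower in the bins above 40 than in those below. Cells of the monocyte, intermediate and C1q+ gates were binned by their macrophage markers per 10000 UMIs. Over the first 4 bins, up to 40, the level ranged from 1970 to 2572 CPM in Irg1+/+ and from 3913 to 4214 CPM in the other library, and in Irg1+/+ the first bin (2572 CPM, 2419 to 2732) and the second (1970 CPM, 1882 to 2061) did not overlap. In the bin from 40 to 80 it was 587 and 1711 CPM, and above 80 it was 388 and 979 CPM. The drop at 40 coincides with the limit between the gates, below which a cell also had to carry monocyte markers, so the gates themselves bear on it. Ly6e was lower above this limit too, going from 3311 and 3956 CPM between 20 and 40 to 1765 and 2751 CPM between 40 and 80, but unlike Ly6c2 it was no lower above 80, with 1944 and 2847 CPM. Ly6a did not fall at this limit, with 890 and 1491 CPM below it and 1011 and 1753 CPM above it.

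**Figure D2:**
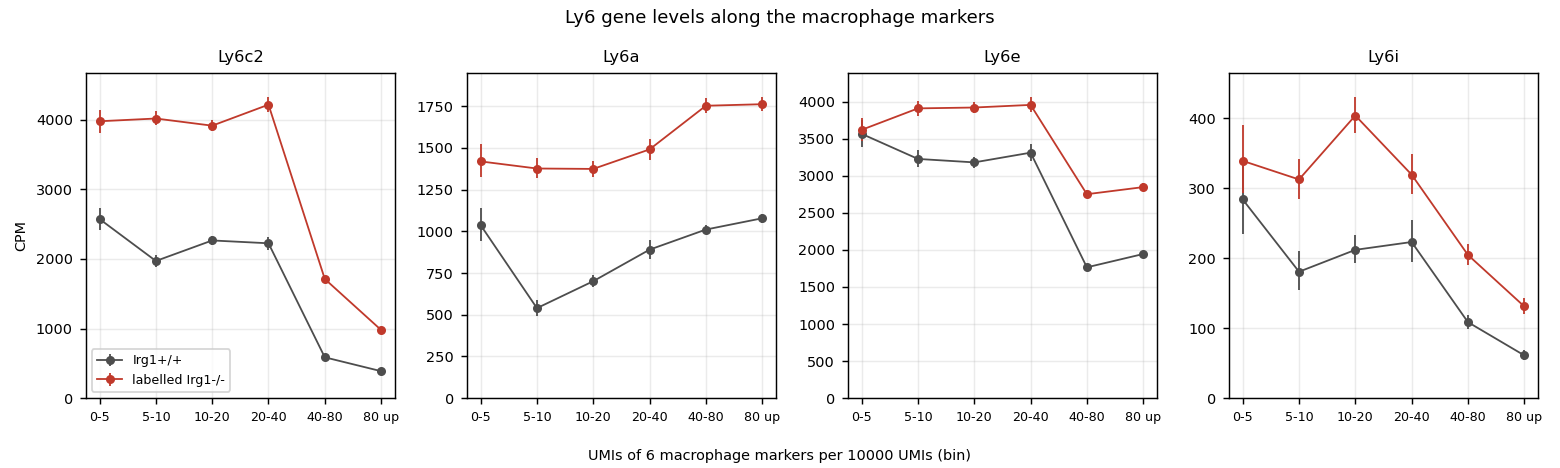
Levels of Ly6c2, Ly6a, Ly6e and Ly6i in CPM (vertical axes, from 0) over bins of macrophage-marker UMIs per 10000 UMIs (horizontal axes) in monocyte-like, intermediate and C1q+ macrophage-like cells of the Irg1+/+ library (grey) and the library labelled Irg1-/- (red). Bars are exact Poisson 95% intervals. Ly6c2 drops between the bins on either side of 40 (from 2224 to 587 CPM and from 4214 to 1711 CPM), where Ly6a does not.

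Ly6c1, the near-identical paralog of Ly6c2, had 124 UMIs in all kept cells of the Irg1+/+ library (2.95 CPM) and 296 in those of the library labelled Irg1-/- (8.38 CPM). In Vcan+ monocyte-like cells it gave 22 and 57 UMIs, or 6.44 and 12.6 CPM, a log2 ratio of 0.95 (0.24 to 1.75), and in regulatory T cells 30 and 8 UMIs, or 13.4 and 8.30 CPM. In each of the 5 classes that do not overlap and held 20 or more of its UMIs, the interval of the ratio included 0. Cells that passed no gate held 16.9% and 43.2% of its UMIs, beside 7770282 of 42105693 and 7138102 of 35307041 UMIs of all genes. Ly6c1 is known in endothelial cells, whose 5 markers summed to 58.9 and 78.4 CPM over all kept cells, led by Pecam1 in the first library and Kdr in the second, with none and 1 of them at 0. The Cd45+ sort is meant to remove such cells, but 59 and 11 cells passed the melanoma gate after it, and the part of endothelial cells was not tested.

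Ly6a, which codes for Sca-1, was highest in pDC and regulatory T cells. Regulatory T cells had 2486 CPM (2421 to 2552) and 2803 CPM (2698 to 2910), and pDC had 2395 CPM (2235 to 2562) and 3308 CPM (3097 to 3531). These 2 classes overlapped in the Irg1+/+ library, and pDC stood higher in the other. Conventional CD4 T cells followed with 1788 and 1987 CPM, and CD8 T cells had 948 and 1206 CPM. Low values were found in NK cells, with 299 and 395 CPM, in mature dendritic cells, with 317 and 567 CPM, and in nonclassical monocyte-like cells, with 401 and 442 CPM.

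The largest differences of Ly6a between the libraries lay in myeloid cells. Vcan+ monocyte-like cells had 696 CPM (669 to 725) in Irg1+/+ and 1381 CPM (1347 to 1416) under the label Irg1-/-, a log2 ratio of 0.99 (0.92 to 1.06). C1q+ macrophage-like cells had 1047 and 1758 CPM, a log2 ratio of 0.75, and the Lyve1+ state 717 and 2367 CPM, a ratio of 1.72 that was 1.07 at 2000 UMIs per cell and 0.92 with each cell counted equally. In regulatory T cells the ratio was 0.17 and in nonclassical monocyte-like cells 0.14, with an interval from -0.20 to 0.48. Without the level of mature dendritic cells the ratio was 1.10 in Vcan+ monocyte-like cells and 0.02 in CD8 T cells. T cells gave 32.2% of Ly6a UMIs in the first library and 17.3% in the second. They held 9835298 of all 42105693 UMIs in the first and 5798032 of 35307041 in the second, so this share also moves with the makeup of the libraries. The log2 ratio of Ly6a over all T cells was 0.16. Fibroblasts are another source of Sca-1, and their 5 markers summed to 43.8 and 69.5 CPM over all kept cells, with none at 0 in either library. The Cd45+ sort is meant to remove these cells as well, and their part was not tested.

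Ly6e, an interferon-inducible member that hinders the entry of coronaviruses, was found in every class. Mature dendritic cells were again among the lowest, with 537 CPM (507 to 568) and 843 CPM (802 to 885), beside melanoma cells with 537 and 609 CPM. Its highest classes were pDC with 4390 and 4356 CPM and nonclassical monocyte-like cells with 4004 and 4371 CPM. B cells came next in the Irg1+/+ library with 3975 CPM, and in the other, with 3857 CPM, they overlapped the intermediates and both Vcan+ monocyte states. In pDC and B cells the libraries overlapped, with log2 ratios of -0.01 (-0.12 to 0.10) and -0.04 (-0.21 to 0.12). Vcan+ monocyte-like cells stood at 3239 CPM (3179 to 3300) and 3879 CPM (3821 to 3937), a log2 ratio of 0.26 (0.23 to 0.29). C1q+ macrophage-like cells had 1862 and 2802 CPM, a ratio of 0.59, which was 0.99 in the Lyve1+ state and 0.54 there at 2000 UMIs per cell.

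Ly6i, a family member of unclear function next to Ly6a, had its highest levels in the monocyte classes. Nonclassical monocyte-like cells had the most, 527 CPM (458 to 604) and 490 CPM (415 to 573), with overlapping intervals. In the library labelled Irg1-/- the interferon-high Vcan+ monocyte-like cells, at 460 CPM (434 to 486), overlapped them. Vcan+ monocyte-like cells had 212 CPM (197 to 228) and 365 CPM (348 to 383), and C1q+ macrophage-like cells 83.0 and 166 CPM. In mature dendritic cells it stood at 40.9 and 97.5 CPM and in NK cells at 20.1 and 59.5 CPM. The log2 ratio was 0.78 in Vcan+ monocyte-like cells, 1.00 in C1q+ macrophage-like cells and 1.25 in mature dendritic cells.

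Ly6d, known from B lymphoid progenitors and from pDC of lymphoid origin, was found in pDC and B cells. In pDC it stood at 1203 CPM (1091 to 1323) and 1092 CPM (972 to 1223), with overlapping intervals and a log2 ratio of -0.14. In B cells (60 and 64 cells) it stood at 522 CPM (411 to 655) and 774 CPM (646 to 920), a log2 ratio of 0.56 (0.15 to 1.00). No other class exceeded 24.9 CPM, a value of 10 UMIs in cycling macrophage-like cells. The pDC gave 62.6% and 50.2% of its UMIs while holding 0.83% and 0.78% of all UMIs. Both gates held their own markers: the 5 pDC markers, led by Siglech, summed to 7848 and 7468 CPM in pDC, and the 5 B cell markers, led by Ms4a1, to 4469 and 4794 CPM in B cells.

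Over the 24 classes that do not overlap, Ly6c2 was higher in the library labelled Irg1-/- in 24, and in 23 the interval of the ratio lay above 0. Its log2 ratios had a median of 0.93 and ran from 0.27 in B cells to 2.25 in Lyve1+ macrophage-like cells (1.40 at 2000 UMIs per cell). Ly6a was higher in 23 classes, with a median of 0.52, and lower only in the 6 and 13 cells of the Retnla+ state. Ly6e was higher in 22 with a median of 0.23, and Ly6i in 21 of the 22 classes where it had 20 UMIs or more in total, with a median of 0.77. The interval of the ratio lay above 0 in 21 classes for Ly6a, in 17 for Ly6e and in 17 for Ly6i. With the level of mature dendritic cells subtracted, the direction turned in 3 of the 21 classes that kept a ratio for Ly6c2, in 5 of 18 for Ly6a and in 6 of 22 for Ly6e, and Ly6i kept a ratio in 7 classes, 1 of which turned, since in the others it was at or below that level in at least 1 library. The classes share their library and its free RNA, so they are not replicates of the comparison.

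**Figure D3:**
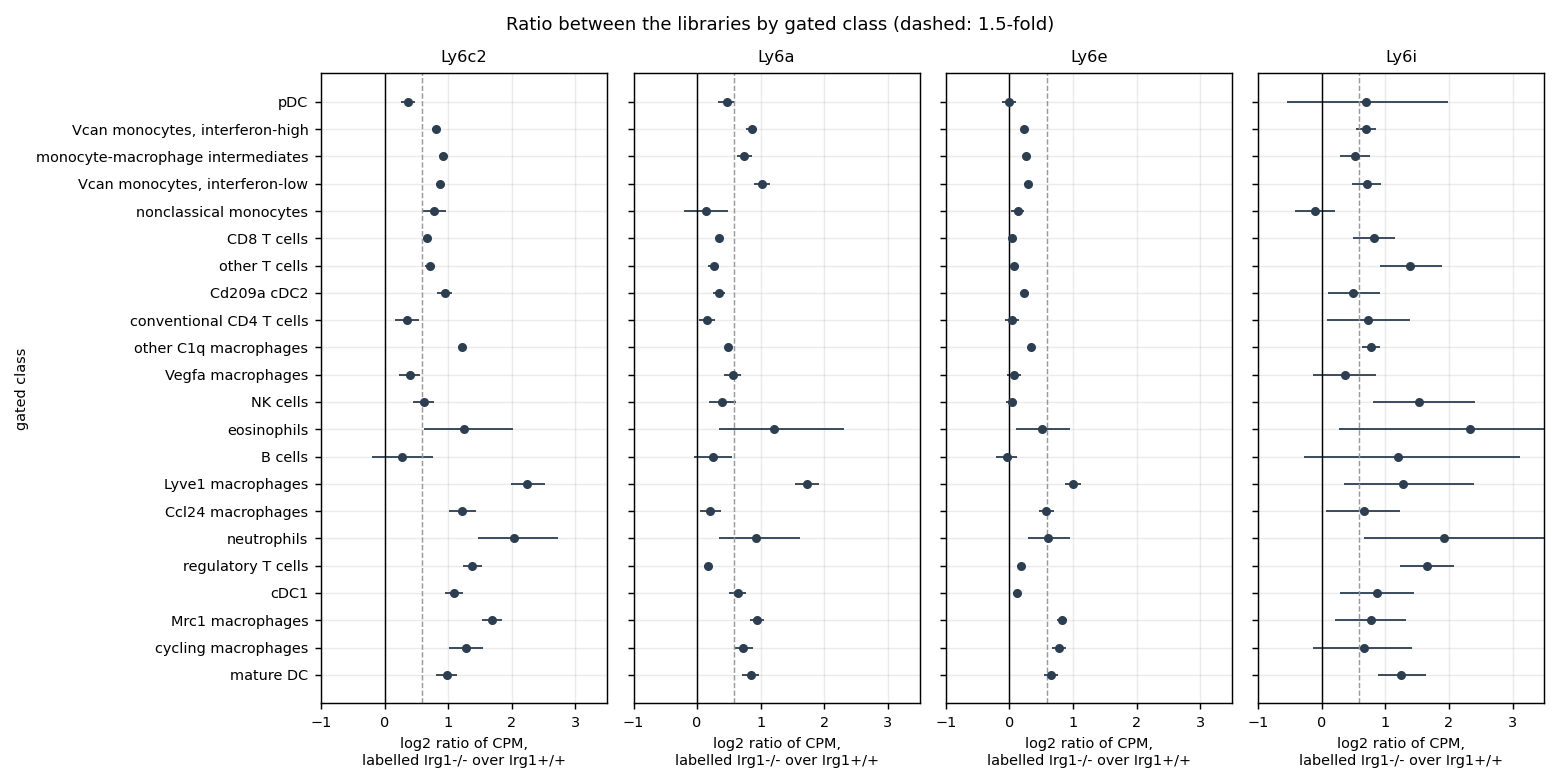
Log2 ratio of the library labelled Irg1-/- over the Irg1+/+ library (horizontal axis, 0 meaning the same CPM) for Ly6 genes by gated class (vertical axis), with exact 95% intervals for counting error. Ly6c2 lies above 0 in all classes shown, from 0.27 in B cells to 2.25 in Lyve1+ macrophage-like cells, while Ly6e lies near 0 in pDC and B cells.

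Read against all genes whose UMIs over both libraries reached 20, the genes at least 1.5-fold higher in the library labelled Irg1-/- made up 5.34% in Vcan+ monocyte-like cells, and 4 of the 6 Ly6 genes were among them (Ly6c2, Ly6c1, Ly6a and Ly6i), although Ly6c1 rested on 22 and 57 UMIs. With at least 100 UMIs per gene the background was 2.55%, and Ly6c1 and Ly6d did not enter. The median log2 ratio there was 0.81 over the Ly6 genes and -0.03 over all genes. In C1q+ macrophage-like cells the background was 5.09% and 6 of 6 passed, with medians of 0.95 and -0.05, although Ly6c1 and Ly6d had under 100 UMIs there. In the intermediates the background was 8.18% and 2 of 5 counted genes passed, and in nonclassical monocyte-like cells 8.21% and 1 of 4. Neutrophils had a background of 15.8% and 4 of 4.

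Among dendritic cells the background was 6.72% in type 1 cells with 3 of 4 Ly6 genes, 7.35% in Cd209a+ type 2 cells with 1 of 5, 6.22% in mature cells with 4 of 4, and 8.61% in pDC with 1 of 5. Among lymphocytes it was 3.95% in CD8 T cells with 2 of 4 (Ly6c2 and Ly6i), 5.79% in regulatory T cells with 2 of 5 and 1 lower (Ly6c1, against 9.26% of all genes lower), 6.71% in NK cells with 2 of 4, and 13.2% in B cells with 0 of 4. As the genes were chosen with these ratios known, and the 20 UMIs may come from 1 library, these counts describe them and support nothing further.

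Interferon state separated the members within Vcan+ monocyte-like cells. Cells with at least 20 UMIs of Cxcl9, Cxcl10, Gbp2, Gbp5 and Rsad2 per 10000 were called interferon-high (306 and 456 cells) and the rest interferon-low (359 and 396 cells). Ly6c2 did not differ between the states beyond counting error, with log2 ratios of high over low of 0.05 (-0.01 to 0.12) in Irg1+/+ and -0.01 (-0.05 to 0.04) in the other library. Ly6a was higher in the interferon-high state, at 929 against 477 CPM and at 1683 against 966 CPM, log2 ratios of 0.96 (0.84 to 1.09) and 0.80 (0.72 to 0.88). Ly6i was higher too, with log2 ratios of 0.97 in both libraries, from 144 to 283 CPM and from 235 to 460 CPM. Ly6e differed by 0.12 and 0.06, and Ly6d had 3 against 11 and 5 against 11 UMIs. Over all genes the median was -0.09 and -0.13.

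Of all genes counted, 6.83% and 5.9% were at least 1.5-fold higher in the interferon-high state, and in both libraries Ly6a, Ly6i and Ly6c1 were among them. Ly6c1 rested on 17 against 5 and 47 against 10 UMIs. In finer bins Ly6a went from 409 CPM below 5 marker UMIs per 10000 to 1212 CPM from 50 up in Irg1+/+, with 523 and 574 CPM in the bins between, which overlapped. In the other library its bins were 972, 964, 1690 and 1678 CPM, so the upper pair stood above the lower pair with no order within either. Ly6i went from 111 to 343 CPM and from 209 to 526 CPM. Ly6c2 showed no order in either library, with 2331, 2076, 2375 and 2170 CPM, and with 3584, 4135, 4648 and 3512 CPM, where the third bin was the highest. In every bin each of these 3 genes was higher in the library labelled Irg1-/-.

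**Figure D4:**
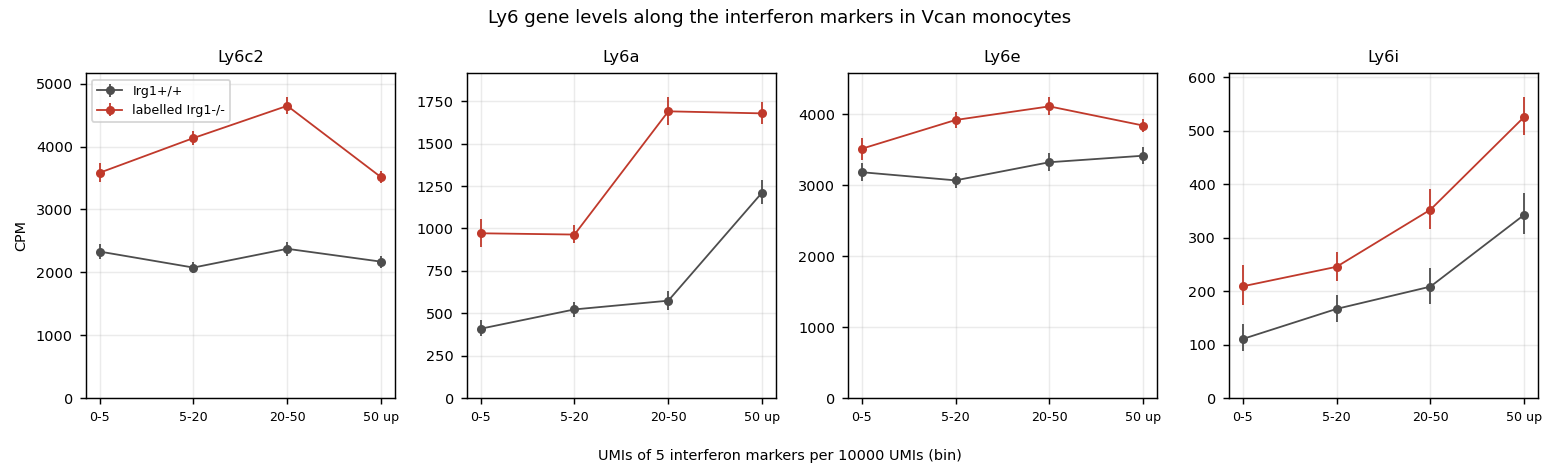
Levels of Ly6c2, Ly6a, Ly6e and Ly6i in CPM (vertical axes, from 0) over bins of UMIs of 5 interferon markers per 10000 UMIs (horizontal axes) in Vcan+ monocyte-like cells, for the Irg1+/+ library (grey) and the library labelled Irg1-/- (red). Bars are exact Poisson 95% intervals. Ly6a and Ly6i are highest in the upper bins (1212 and 1678 CPM, and 343 and 526 CPM, from 50 up), whereas Ly6c2 shows no order along the bins.

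A list of interferon-response genes was counted in the same way. In Vcan+ monocyte-like cells 16 of 34 counted genes of this list were at least 1.5-fold higher and 0 lower, with a median log2 ratio of 0.49 against -0.03 over all genes, of which 5.34% were higher and 7.1% lower. Iigp1, an interferon-inducible GTPase that attacks vacuoles of parasites, had 130 and 404 CPM, and Irf7, the transcription factor that amplifies type I interferon, 235 and 438 CPM. Bst2, which tethers viruses with a GPI anchor of its own, had 188 and 335 CPM. In C1q+ macrophage-like cells 15 of 34 passed (median 0.57, background 5.09%), in mature dendritic cells 15 (median 0.53, background 6.22%), in NK cells 7 (median 0.25, background 6.71%) and in CD8 T cells 4, with 3 lower (median 0.11, backgrounds 3.95% higher and 7.25% lower). In type 1 dendritic cells 19 of 34 were higher and 1 lower (median 0.64, backgrounds 6.72% and 7.21%). In Cd209a+ cells 15 of 34 were higher and 0 lower (median 0.46, backgrounds 7.35% and 9.32%). In pDC 10 of 25 were higher and 1 lower (median 0.43, backgrounds 8.61% and 11.7%). Some other classes were more mixed. In the intermediates 7 of 34 were higher and 1 lower (8.18% and 7.69% of all genes), in regulatory T cells 6 of 34 were higher and 3 lower (5.79% and 9.26%), and in neutrophils 6 of 31 were higher and 5 lower (15.8% and 21.8%). The 4 higher ones in CD8 T cells were Cxcl10, Gbp5, Iigp1 and Tgtp1, and the 3 lower ones were the antiviral genes Ifit1 (56.3 and 28.6 CPM), Ifit3 and Rsad2. Between the interferon states 29 and 23 of 34 passed, against 6.83% and 5.9% of all genes, 5 of which had set the state.

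The genes that act on Ly6 proteins were also counted. Of the genes that build and attach the GPI anchor, 0 of 24 counted were at least 1.5-fold higher in Vcan+ monocyte-like cells (5.34% of all genes) and 4 were lower (7.1% of all genes), with a median log2 ratio of -0.17. In C1q+ macrophage-like cells 0 of 26 were higher (5.09% of all genes) and 2 lower (Pigf and Pigl, 7.22% of all genes), and in the intermediates 3 of 18 were higher (8.18% of all genes) and 2 lower (7.69% of all genes), with a median of 0.04. The 4 lower ones in Vcan+ monocyte-like cells were Dpm1 (45 and 24 UMIs), Piga, Pigl and Pigw, each with at most 57 UMIs in a library. Pgap2, which remodels the lipid of the anchor, had 90.4 and 112 CPM, and Pigt, a subunit of the transamidase that attaches it, had 71.1 and 81.3 CPM. Of 28 relatives with the same protein fold, 2 had enough UMIs in Vcan+ monocyte-like cells. Plaur, the urokinase receptor, was one of them, with 1089 and 946 CPM. Of interferon gamma and the interferon receptors, 0 of 5 counted passed in Vcan+ monocyte-like cells. Ifng, the cytokine itself, had 211 and 264 CPM in NK cells and 245 and 272 CPM in CD8 T cells.

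The monocyte genes read beside Ly6c2 were mixed, and 6 of the 10, Ccr2, Plac8 and Chil3 among them, had also set the gate. In Vcan+ monocyte-like cells 0 of 10 were at least 1.5-fold higher and 1 was lower, against 5.34% and 7.1% of all genes. Plac8 had 3459 and 4380 CPM, and Ccr2, the chemokine receptor that brings monocytes out of the marrow, had 1837 and 2023 CPM. Chil3, a lectin of immature monocytes, was the lower one, at 2175 and 1140 CPM, a log2 ratio of -0.93. In C1q+ macrophage-like cells 4 of 10 were higher, against 5.09% of all genes, among them Plac8 with 448 and 983 CPM and Ccr2 with 585 and 1013 CPM, whereas Cd36, a scavenger receptor, had 665 and 453 CPM.

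Likeness of pattern was measured by Pearson's r of log2(CPM + 1) over 44 points, the 22 classes with at least 25 cells in each of the 2 libraries, among 9134 genes. The points share libraries, depth and free RNA, so r is a description only. The genes most like Ly6c2 were Plac8 (0.89), Irf7 (0.72), Ifi47 (0.69), BC147527 (0.68) and Sp100 (0.68), the first of which is a marker of the monocyte gate. Ly6a was most like Slamf6 (0.66), Klhl42 (0.64), Snx9 (0.64), Iigp1 (0.64) and Svbp (0.62). Ly6e was most like Atf6 (0.78), Selenot (0.75), Plac8 (0.74), Fkbp5 (0.74) and Laptm5 (0.74). Ly6d was most like Gm30211 (0.91), Iglv3 (0.89), Xkrx (0.88), Hs3st1 (0.85) and Iglc1 (0.83), 2 of which are immunoglobulin lambda segments. Ly6c1 was not compared with the other members. Among those others r was highest between Ly6c2 and Ly6e (0.66), followed by Ly6c2 and Ly6i (0.59), and lowest between Ly6i and Ly6d (-0.12).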

How the data were processed

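Cd45+ cells of B16-F10 tumors were measured in 2 single-cell libraries, 1 per genotype. Deposited were whole-number UMI counts for each gene in each cell, which the authors had not normalized. Per the methods, the authors trimmed reads with fastp and aligned them by STAR (Ensembl release 100), and the submitters' processing notes name CASAVA 1.8, UMI-tools, Seurat and GRCm38. How reads shared by paralogs were counted is not given in the sources used here.

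A cell was kept if it had more than 200 genes and a mitochondrial share of UMIs below 10%, which removed 124 and 102 cells. Mitochondrial genes did not enter further sums. The members, marker genes and gene lists were chosen with earlier results of these data known, and the limits of the gates were set after the data had been seen. A gate needed at least 3 marker UMIs and 20 per 10000 UMIs (50 for mature dendritic, neutrophil and Vcan+ monocyte-like cells, 40 for macrophage-like, 30 for nonclassical). Within gated cells, CD8, interferon-high and the macrophage states other than cycling needed only a limit per 10000. This limit was 5 for CD8 and Lyve1+, 40 for Vegfa+ and 20 for the others. In shallow cells 1 UMI could thus be enough for CD8 or Lyve1+, and Cd4 and Foxp3 were counted from 1 UMI. Up to 25% above and below their limits lay 664 and 979 cells for the Vcan+ gate and 313 and 500 for the C1q+ gate. No doublet caller was run: cells with markers of several lineages were left out, and the 5% of cells with the most UMIs were removed as an alternative. Monocyte and Cd209a+ markers did not count as lineages here. A cell with these and, for example, T cell markers therefore stayed in the T cell class.

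UMIs were summed per class, divided by the UMIs of the class (CPM), and given with exact Poisson 95% intervals. Library ratios used 0.5 added UMIs and exact conditional binomial intervals, shares Clopper-Pearson intervals, and no test was run. Counts and medians over genes took those with 20 or more UMIs in total. Named genes were the 6 members, the highest genes of each list, the other Ly6 symbols and the 5 genes most like each of Ly6c2, Ly6a, Ly6e and Ly6d. Alternatives were other scaling (TMM of edgeR 4.0.16 in R 4.3.3), gates, depths and filters. Of 31240 gene identifiers, 31094 were found in GENCODE M21. Analyses used Python 3.11.15, numpy 2.4.6, scipy 1.17.1, pandas 2.3.3, Biopython 1.88 and matplotlib 3.10.9. A few list and marker genes entered these sums and counts but are not reported here by name.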

Additional observations from a re-analysis of the deposited data

How the results depend on the processing

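The 5 log2 values below kept their direction under the settings tried. No paired analysis was possible because each genotype has 1 library, and no library could be left out for the same reason. In Vcan+ monocyte-like cells the log2 library ratio of Ly6c2 (0.83) was 0.88 as a mean of each cell's CPM, 0.87 with TMM scaling and 0.72 with gates of doubled limits. That of Ly6a (0.99) was 0.81 with the doubled limits, 0.90 with cells placed by their highest z score and 1.10 with the mature dendritic level subtracted, an alternative chosen after seeing the data. In single classes this subtraction turned the ratio of Ly6c2 in 3 of 21 classes (Vegfa+ macrophage-like cells 0.39 to -0.09, conventional CD4 T cells 0.35 to -0.02, B cells 0.27 to -1.14), of Ly6a in 5 of 18, of Ly6e in 6 of 22 and of Ly6i in 1 of 7. At 2000 UMIs per cell, also chosen after seeing the data, the Ly6e ratio in Vegfa+ macrophage-like cells turned from 0.07 to -0.016, within its counting error, and the Ly6c2 ratio in Lyve1+ cells went from 2.25 to 1.40. The Ly6e ratio in Vcan+ monocyte-like cells (0.26) was 0.30 with TMM scaling and 0.17 with the subtraction. The Ly6c2 ratio in CD8 T cells (0.66) was 0.59 without the 5% of cells with the most UMIs, 0.39 thinned to 2000 UMIs, 0.41 as a mean of each cell's CPM, 0.55 with doubled limits, 0.57 by z score and 0.55 with the subtraction. The log2 fold of Ly6c2 in Vcan+ monocyte-like over C1q+ macrophage-like cells of the Irg1+/+ library (2.21) was 1.92, 1.79, 1.79, 2.31, 2.86, 2.36 and 3.0 without the deepest cells, thinned, per cell, with TMM scaling, doubled limits, z score and subtraction. The causes were not tested. With at least 100 UMIs per gene the share of genes 1.5-fold higher fell from 5.34% to 2.55% in Vcan+ monocyte-like cells, from 5.09% to 2.83% in C1q+ macrophage-like cells and from 3.95% to 1.35% in CD8 T cells. It fell by more than 1.5 times in the other classes too, except in neutrophils (15.8% to 11.1%). Depth limits Ly6c1 and, outside pDC and B cells, Ly6d.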

Other observations

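The other Ly6 symbols of the files had few UMIs. Ly6g, the antigen by which mouse neutrophils are sorted, had 22 UMIs in the Irg1+/+ library and 7 in the library labelled Irg1-/-. In the neutrophil gate it had 0 UMIs in 41 cells and 5 UMIs in 146 cells, a gate set on S100a8, S100a9, Cxcr2, Csf3r and Mmp9. In the Irg1+/+ library 9 of the 22 Ly6g UMIs were in conventional CD4 T cells and 5 in regulatory T cells. Ly6g5b had 159 and 88 UMIs and Ly6k 7 and 26. Ly6f, Ly6m, Ly6g5c, Ly6g6c, Ly6g6d and Ly6g6e had at most 12 UMIs in either library, and Ly6g2, Ly6l, Ly6h, Ly6g6f and Ly6g6g had 0 in both.

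Acod1 differed in direction between myeloid classes. It had 197 and 139 CPM in Vcan+ monocyte-like cells, a log2 ratio of -0.51, and 93.1 and 142 CPM in C1q+ macrophage-like cells, a log2 ratio of 0.60. In the interferon-high monocyte state it had 347 and 204 CPM and in the interferon-low state 55.8 and 48.4 CPM, against 18.2 and 19.4 CPM in mature dendritic cells.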
